A study of Mus musculus with 14 samples.

Results

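Tumorspheres of FAK-null mouse ovarian tumor cells that expressed active β-catenin were compared with tumorspheres of the same cells that had regained FAK. The 2 lines share 1 parent, the FAK knockout (FAK KO) clone KT13 of KMF cells, so the comparison sets an added β-catenin transgene against an added FAK transgene. All 3 β-catenin ΔGSK samples and all 3 FAK-WT samples were taken, 6 of the 14 samples in the series, and all 35275 genes of the expression table were considered.

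KMF is an aggressive cell line derived from ID8 mouse ovarian surface epithelial cells. In KT13, CRISPR/Cas9 editing introduced stop codons in exon 4 of Ptk2, the gene for FAK, and KT13 is a single clone. β-catenin ΔGSK cells are KT13 cells with a retroviral β-catenin that lacks the GSK3 phosphorylation sites and with GFP made from the same vector. FAK-WT cells are KT13 cells with a lentiviral murine GFP-FAK fusion driven by the CMV promoter, and both lines were drug selected and then enriched by flow cytometry. All cells grew for 5 days without anchorage in serum-free PromoCell tumorsphere medium. The other 8 samples, used here only as levels beside the comparison, are 3 of KMF, 3 of FAK KO and 2 of KT13 with kinase-inactive GFP-FAK (FAK-R454). The vectors differ along with the inserts, so an effect of the vector, the selection or the sort cannot be told apart from that of the inserted gene. No label says that the samples of a line came from separate cultures, so p-values measure the spread between these samples, which may be technical.

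FAK is a cytoplasmic tyrosine kinase that binds to integrin complexes and carries signals from the extracellular matrix to the cell. β-catenin joins cadherins to the cytoskeleton and, when it escapes phosphorylation by GSK3 and destruction, enters the nucleus, binds TCF/LEF factors and switches on Wnt target genes. Several of those targets, such as Axin2, Nkd1, Rnf43, Znrf3 and Notum, are inhibitors of the pathway itself and serve as its feedback. In the ovary, Wnt4 and other Wnt genes are known for their part in gonad formation.

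The values are FPKM, fragment counts scaled to transcript length and to the mapped fragments of the library. The 6 libraries hold 25390558 to 31410807 fragments over the genes of the table, and no pair of samples of a line agreed within sampling noise. FAK-WT sample 3 differed more from the other FAK-WT samples (chi-square per degree of freedom of 42.5 and 30.5) than they did from each other (3.15). Among the β-catenin ΔGSK samples, sample 1 differed most from the others (30.4 and 18.1, against 8.75 between samples 2 and 3). For several gene groups, values without 1 of these samples are given beside the result. Several markers of ovarian and mesothelial cells were high in both lines (means of Wt1, Krt8, Krt18, Krt19 and Gata4 of 75.3 FPKM or more), but Pax8, Cdh1 and Krt7 had means of 0.299 FPKM or less. Bnc1 was low too, at 1.99 ± 0.18 FPKM in β-catenin ΔGSK and 0.400 ± 0.14 FPKM in FAK-WT. Of 22 such markers, 14 had a mean above 1 FPKM in either line. Of the leukocyte markers, Ptprc and Cd3e were at or near 0, and the fibroblast markers Thy1, Lum and Pdgfrb and the endothelial markers Cdh5 and Kdr were near 0 too. The 2 endothelial markers that were tested, Tek and Pecam1, were both called lower in β-catenin ΔGSK, Tek at 6.75 ± 0.48 against 17 ± 0.70 FPKM and Pecam1 at 0.286 ± 0.14 against 1.17 ± 0.098 FPKM (log2 fold change -1.77, and -0.76 with a pseudocount of 1, where it was not called). Expressed fibroblast and macrophage markers that were also called lower are given with the matrix and chemokine genes. The part of these markers in the results was not tested.

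The 2 lines differed in many genes, and more genes were lower than higher with active β-catenin. A gene was called when limma gave a Benjamini-Hochberg adjusted p under 0.05 over all 11873 genes tested, a log2 fold change of at least 1 in size and a mean above 1 FPKM in the higher line. By this rule 532 genes, 4.48% of those tested, were higher in β-catenin ΔGSK and 851 genes, 7.17%, were lower. In all, 1383 genes (11.6%) were called, and in 1377 of them the 3 samples of one line lay wholly above the 3 of the other, which held for 61.6% of all genes tested. The median log2 fold change over all genes tested was -0.01. A difference of more than 8-fold was seen in 75 genes called higher and 154 called lower.

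**Figure D1:**
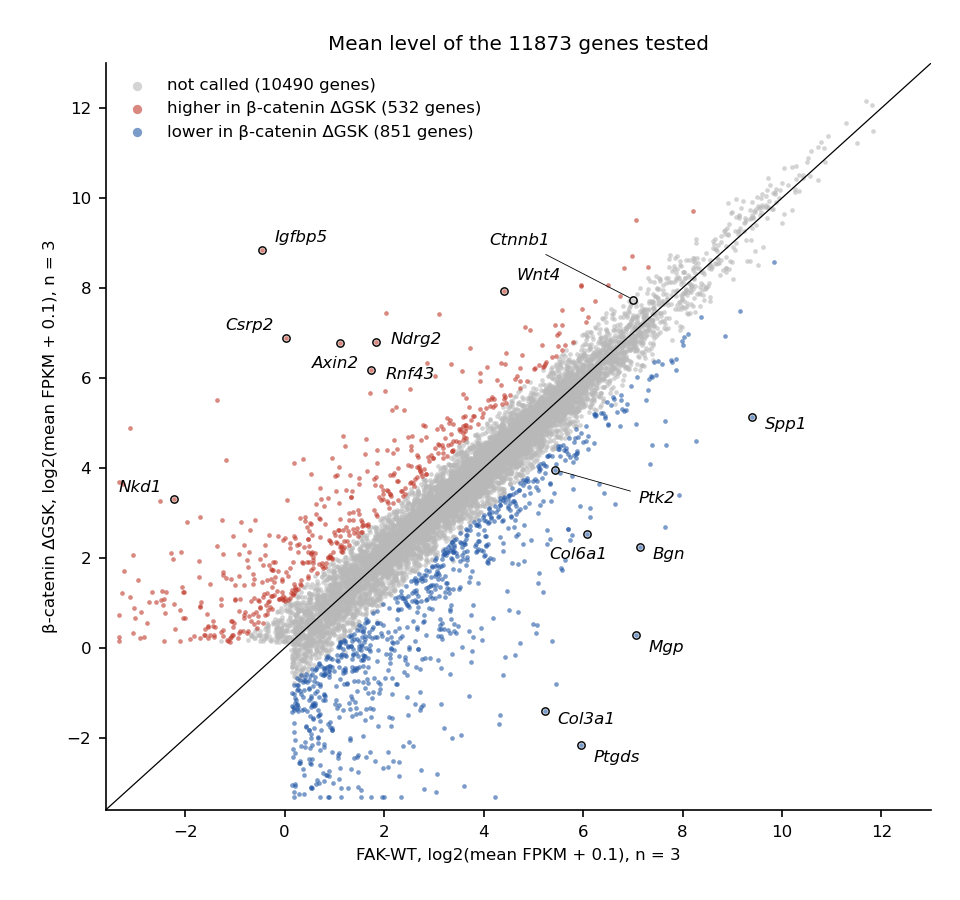
Each point is 1 of the 11873 genes tested, with its mean in FAK-WT on the x axis and in β-catenin ΔGSK on the y axis, both as log2(FPKM + 0.1) over 3 samples; the line marks equal levels. The 532 red genes were called higher and the 851 blue genes lower in β-catenin ΔGSK, with Igfbp5 and Axin2 far above the line and Ptgds, Col3a1 and Mgp far below it.

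The levels in FAK KO cells show on which side of the parent each difference lies. On a log2 scale, the FAK KO mean was nearer to FAK-WT than to β-catenin ΔGSK for 438 of the 532 genes called higher (82.3%) and for 672 of the 851 genes called lower (79.0%). FAK KO lay close to β-catenin ΔGSK or beyond it, within 25% of the distance between the 2 lines, for 34 of the genes called higher and 67 of those called lower. The genes of this smaller class include Col6a1 and Col6a2, described below, and Igfbp5 and Spp1 belong to the larger one. These positions were read from genes already chosen for their difference between the 2 lines, and so are a description.

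Ptk2 and Ctnnb1 are the genes introduced into KT13. Ptk2 (mm10, chromosome 15, 73205105 to 73423191) was at 15.4, 15.9 and 15.1 FPKM in β-catenin ΔGSK samples 1 to 3 and at 42.3, 42.5 and 45.4 FPKM in FAK-WT samples 1 to 3. Ptk2 mRNA was thus higher in every GFP-FAK sample, and the FAK KO mean of 19.0 ± 1.45 FPKM (SD, n = 3, as in every mean ± SD of this comparison) lay close to β-catenin ΔGSK. The log2 fold change was -1.48 ± 0.06 (SE; limma adjusted p = 7.6e-07). Ctnnb1, which encodes β-catenin (chromosome 9, 120929216 to 120960507), was at 207, 212 and 223 FPKM in β-catenin ΔGSK and at 127, 129 and 130 FPKM in FAK-WT. The lines did not overlap, but the log2 fold change of 0.73 ± 0.06 stayed below the 2-fold threshold. Ctnnb1 averaged 145 FPKM in FAK KO and 200 FPKM in KMF, which carries no transgene, so its level does little to check the label of β-catenin ΔGSK. How far fragments of the transgenes were counted in these 2 genes was not tested. Ptk2b, the gene for the FAK relative Pyk2, was at 16.4 ± 2.05 FPKM against 8.32 ± 1.00 FPKM in FAK-WT, also just under 2-fold (log2 fold change 0.97, and 1.01 to 1.05 when FAK-WT sample 1, FAK-WT sample 2 or β-catenin ΔGSK sample 1 was left out).

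Genes of Wnt feedback rose together with active β-catenin. Of 15 tested genes in a list of Wnt feedback genes and targets, 8 were called higher (53.3%, against 4.48% of all genes) and 1 lower (6.67%, against 7.17%). The list median was 1.37 on the log2 scale, against -0.01 for all genes. With no filter on low values, 9 of 24 genes were called higher (against 3.498% of all genes) and 2 lower (against 6.416%). The list median fell to 0.37 in that setting, against -0.05 for all genes. Axin2, a scaffold of the β-catenin destruction complex (chromosome 11, 108920349 to 108950783), was at 102, 112 and 114 FPKM in β-catenin ΔGSK and at 2.02, 2.05 and 2.09 FPKM in FAK-WT. This was a 53.3-fold ratio of means, and its log2 fold change of 5.67 ± 0.07 had an adjusted p of 2.1e-09 by limma. Axin2 was lower still in FAK KO, at 0.822 ± 0.015 FPKM, and was at 5.88 FPKM in KMF, so FAK-WT stood between FAK KO and KMF while β-catenin ΔGSK stood far above all of them.

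The other feedback genes followed, at lower levels. Rnf43, a ubiquitin ligase that removes Wnt receptors from the surface, was at 68.8, 71.6 and 75.7 FPKM against 3.63, 3.57 and 2.44 FPKM in FAK-WT (log2 fold change 4.46 ± 0.14). Its relative Znrf3 rose less, from 8.45 ± 0.70 to 22.6 ± 0.70 FPKM. Nkd1, an inhibitor of Dishevelled, was at 9.31, 10.7 and 9.69 FPKM against 0.171, 0.0691 and 0.103 FPKM. Notum, which inactivates Wnt ligands by removing their lipid, rose from 1.99 ± 0.38 to 14.2 ± 1.7 FPKM. The R-spondin receptor Lgr5 was nearly silent in FAK-WT (0.207 ± 0.028 FPKM) and reached 7.43 ± 0.32 FPKM. Tnfrsf19, another known Wnt target, was at 13.7, 11.3 and 12.4 FPKM, while the FAK-WT libraries held 2 fragments in all, a ratio of 2553 with a 95% counting interval of 706 to 21091. Tcf7, itself a partner of β-catenin, rose from 15.2 ± 1.4 to 39.3 ± 1.6 FPKM. In none of these 8 called genes, Axin2 included, did the samples of the lines overlap. The same held for 1377 of the 1383 called genes and for 61.6% of all genes tested.

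Other genes often used as Wnt targets moved less or the other way. Myc was at 59.4, 66.7 and 62.2 FPKM against 49.2, 51.6 and 46.7 FPKM, a log2 fold change of 0.35 ± 0.07 (limma adjusted p = 0.0032). Apcdd1 and Cd44 also differed by less than 2-fold, with log2 fold changes of 0.59 and 0.39. Ccnd1, the gene for cyclin D1, was lower in β-catenin ΔGSK, at 68.9 ± 2.1 FPKM against 104 ± 11 FPKM (log2 fold change -0.59), whereas Ccnd2 was higher, as given below. Bmp4 was the single gene of the list called lower (-1.31). Lef1 and Dkk1 had means of 0.301 FPKM or less in both lines and were not tested, nor was Sp5, at 0.433 FPKM against 0.0222 FPKM.

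**Figure D2:**
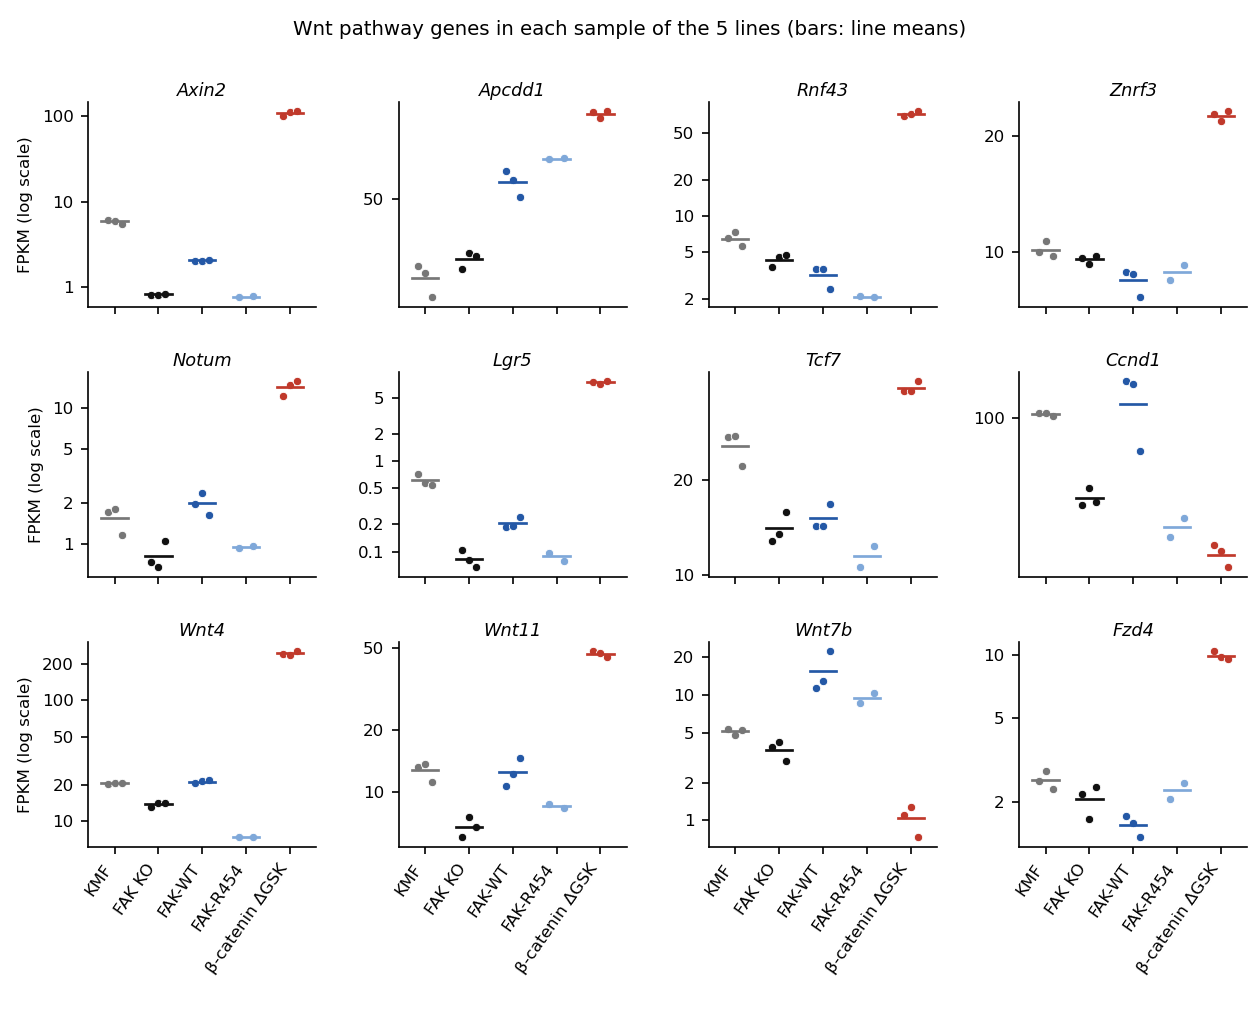
FPKM on a log axis of 12 Wnt pathway genes in each sample of the 5 lines (3 samples a line, 2 of FAK-R454), with line means as bars. β-catenin ΔGSK stands above every other line in 10 panels, and is lowest for Ccnd1 and Wnt7b.

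Wnt4 led the Wnt ligands. It was at 241, 239 and 256 FPKM against 20.5, 21.3 and 21.9 FPKM in FAK-WT, an 11.5-fold ratio (log2 fold change 3.52 ± 0.06, limma adjusted p = 7.8e-09). FAK KO and FAK-R454 were at 13.8 and 7.39 FPKM. Of 9 ligands tested, 3 were called higher (33.3%, against 4.48% of all genes) and 2 lower (22.2%, against 7.17%). Wnt11 rose from 12.5 ± 2.0 to 47.0 ± 1.5 FPKM, and Wnt6 from 43.6 ± 5.8 to 89.7 ± 11 FPKM, the latter at the threshold (1.04, and 0.93 without FAK-WT sample 3 or 0.94 without β-catenin ΔGSK sample 3). Wnt7b fell from 11.4, 13 and 22.4 FPKM in FAK-WT to 1.11, 1.27 and 0.730 FPKM, and FAK KO was between, at 3.67 ± 0.64 FPKM. Wnt10b was the other ligand called lower, while Wnt5a and Wnt10a had log2 fold changes of 0.44 and 0.19.

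Of 16 receptors and inhibitors, 3 were called in each direction (18.75% each, against 4.48% higher and 7.17% lower of all genes). The receptors Fzd4 (from 1.56 ± 0.18 to 9.90 ± 0.42 FPKM) and Ror1 (from 1.77 ± 0.02 to 5.12 ± 0.43 FPKM) and the proteoglycan Gpc4 (from 63.3 ± 6.1 to 186 ± 4.6 FPKM) rose. Fzd9, Fzd1 and Sost fell, Fzd1 at the threshold (-1.04, and -0.90 without FAK-WT sample 3; it was also not called without β-catenin ΔGSK sample 3). Sost passed the filter on low values only with FAK-WT sample 1 included. Of 21 genes of the destruction complex and the nuclear complex, 1 was called higher and 1 lower (4.76% each, against 4.48% and 7.17% of all genes), with a median of -0.01. Both counts were 2 without FAK-WT sample 3 or without β-catenin ΔGSK sample 3, and 2 were called lower without β-catenin ΔGSK sample 2. With no fold limit 7 were higher (33.3%, against 24.4% of all genes) and 4 lower (19.0%, against 26.4%). The called genes with all samples were Tle1, a co-repressor (26.9 ± 1.2 against 10 ± 1.4 FPKM), and Tcf7l1, the TCF family member best known as a repressor (7.04 ± 0.19 against 20.9 ± 4.7 FPKM). Apc, Axin1 and Gsk3b had log2 fold changes of 0.43, -0.16 and 0.35.

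Promoter sequence was searched for the core letters of a TCF/LEF site, CTTTGAT on either strand, in RefSeq windows (GRCm38.p6) from 250 bases before to 50 bases after a gene start. A window was found for 8619 of the tested genes. The letters occurred in 3.72% of 27025 windows of all genes, 2.38% of windows of genes tested, 2.85% of genes called higher (10 of 351) and 2.17% of genes called lower. None of the 7 windows found for the feedback list held them, which says only that these letters are not in those windows. The 2 genes below were called higher and hold the letters; the 130 bases before the start are shown 5′ to 3′ with the TCF/LEF letters, here on the opposite strand, in capitals.
Wnt11 (chr7:98834982-98835111, plus strand): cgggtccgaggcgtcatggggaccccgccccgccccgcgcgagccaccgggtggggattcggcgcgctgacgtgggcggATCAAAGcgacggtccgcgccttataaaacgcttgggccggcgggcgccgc
Hdc (chr2:126618679-126618808, minus strand): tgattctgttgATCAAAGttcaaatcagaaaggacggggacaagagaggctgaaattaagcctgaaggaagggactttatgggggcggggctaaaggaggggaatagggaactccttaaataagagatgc
The match lies 51 bases before the start in Wnt11 and 119 bases before it in Hdc, the gene for histidine decarboxylase, which makes histamine. Hdc was at 16.3, 16.9 and 21.2 FPKM in β-catenin ΔGSK and at 0.497, 0.355 and 0.169 FPKM in FAK-WT (log2 fold change 5.44 ± 0.27).

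The largest log2 fold change of all genes belonged to Igfbp5, a secreted binding protein of insulin-like growth factors (chromosome 1, 72857932 to 72874884). Igfbp5 was at 459, 460 and 461 FPKM in β-catenin ΔGSK and at 0.508, 0.614 and 0.769 FPKM in FAK-WT, a 730-fold ratio (log2 fold change 9.32 ± 0.12, limma adjusted p = 2.1e-09). Its means in KMF, FAK KO and FAK-R454 were 0.197 FPKM or less. Igfbp2 was at 158, 168 and 194 FPKM against 4.51, 3.96 and 3.56 FPKM. The other binding proteins went the other way: Igfbp3, Igfbp4 and Igfbp7 were called lower, Igfbp7 from 134 ± 17 to 31.5 ± 3.9 FPKM. Of 13 tested genes of the axis, 2 were called higher (15.4%, against 4.48% of all genes) and 3 lower (23.1%, against 7.17%).

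Several further genes were close to silent in FAK-WT and abundant in β-catenin ΔGSK. Csrp2, a LIM protein of the cytoskeleton, was at 120, 114 and 122 FPKM against 0.896, 1.26 and 0.589 FPKM. Stra6, the retinol receptor, was at 40.9, 47.7 and 48.5 FPKM against 0.229, 0.339 and 0.300 FPKM. Gng11, a G protein γ subunit, was at 13.1, 14.1 and 11.4 FPKM and had no fragment in any FAK-WT library, so it was at least 330-fold higher against a floor of 3 fragments over the line. The class I histocompatibility gene H2-Q1 was at 29.0, 28.7 and 30.5 FPKM against at most 0.0223 FPKM; its reads may be shared with close relatives, so its level is uncertain. Ndrg2 rose from 3.49 ± 0.70 to 111 ± 8.9 FPKM. Among the most abundant genes called higher, Mfge8, a secreted integrin ligand, rose from 134 ± 4.4 to 730 ± 87 FPKM, and Ldhb, a lactate dehydrogenase subunit, from 61.7 ± 15 to 269 ± 44 FPKM.

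BMP and activin genes were called in both directions. Of 29 tested genes of BMP, TGFβ and activin signaling, 7 were called higher (24.1%, against 4.48% of all genes) and 11 lower (37.9%, against 7.17%). The list median was -0.32. Bmp6 was at 17.5, 17 and 20.1 FPKM against 1.09, 1.21 and 1.29 FPKM, and Bmp7 was at 13, 14.5 and 14.7 FPKM against 1.89, 2.11 and 1.77 FPKM. The BMP targets Id2 (40.7 ± 4.0 against 4.61 ± 0.34 FPKM), Id3 (146 ± 2.0 against 42.9 ± 3.0 FPKM) and Smad6 (33.2 ± 1.3 against 9.95 ± 0.59 FPKM) rose, as did the activin antagonist Fst. Among genes called lower were Gdf6, the activin subunits Inhbb and Inhba, the BMP antagonist Chrd (from 21.0 ± 3.4 to 4.36 ± 0.70 FPKM) and Bmp4. Gdf6 had its highest means in FAK KO (14.1 FPKM) and FAK-R454 (14.6 FPKM), against 5.08 FPKM in FAK-WT and 0.121 FPKM in β-catenin ΔGSK.

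Extracellular matrix genes formed the other large block, and most of their calls were lower with active β-catenin. All 3 tested collagen VI genes were called lower (100%, against 7.17% of all genes), with a median of -4.06. Only these 3 of 6 collagen VI genes passed the filter on low values. With no filter, 3 of the 6 were called lower (against 6.42% of all genes) and 2 had a log2 fold change above 0, with a median of -2.02. Col6a1 (chromosome 10, 76708792 to 76726168) was at 5.68, 6.32 and 5.06 FPKM in β-catenin ΔGSK and at 64.6, 69.5 and 68.8 FPKM in FAK-WT (log2 fold change -3.55 ± 0.09, limma adjusted p = 5.8e-08). FAK KO was at 5.88 ± 0.66 FPKM, so the FAK KO mean lay within the range of the β-catenin ΔGSK samples, and FAK-WT lay far above both. Its neighbor Col6a2 averaged 0.708 ± 0.051 FPKM with β-catenin ΔGSK against 13.4 ± 1.3 FPKM with FAK-WT, and the FAK KO mean was 0.947 ± 0.19 FPKM. Col6a3, on another chromosome, was at 0.181, 0.113 and 0.161 FPKM in β-catenin ΔGSK, 3.30 ± 0.30 FPKM in FAK KO and 7.92, 9.02 and 13.7 FPKM in FAK-WT.

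Of 18 other collagens tested, 7 were called lower (38.9%, against 7.17% of all genes) and 2 higher (11.1%, against 4.48%), with a median of -0.70. Col3a1, a fibrillar collagen, was at 0.247, 0.290 and 0.293 FPKM against 33.4, 40 and 39.4 FPKM in FAK-WT, with 7.32 ± 1.6 FPKM in FAK KO (log2 fold change -6.64 ± 0.11). Col5a1 was at 0.235, 0.347 and 0.186 FPKM against 14.5, 17.2 and 28.5 FPKM, and Col1a1 at 0.113, 0.239 and 0.229 FPKM against 7.57, 8.03 and 11.8 FPKM. In these 3 genes FAK KO lay between the lines. Col15a1, a collagen of the basement membrane zone, had another pattern: it was at 6.47, 8.18 and 4.54 FPKM in β-catenin ΔGSK but at 202 ± 6.2 FPKM in FAK-WT and 195 ± 9.7 FPKM in FAK KO. The 2 collagens called higher were Col12a1 (4.29 ± 0.59 against 0.513 ± 0.19 FPKM) and Col22a1 (11.6 ± 1.3 against 1.53 ± 0.27 FPKM). Col4a1, a main chain of basement membrane collagen IV, was not called (log2 fold change -0.89, and -1.02 without FAK-WT sample 1). Of 11 laminin and basement membrane genes tested, 1 was called higher (9.09%, against 4.48% of all genes) and 2 lower (18.2%, against 7.17%). With no fold limit 4 were higher (36.4%, against 24.4%) and 6 lower (54.55%, against 26.4%). Without FAK-WT sample 3, 1 was called lower, and without β-catenin ΔGSK sample 3, 2 were called higher. Col1a1, Dcn and Pdgfra are also used as fibroblast markers, and all 3 tested genes of that marker list were called lower; Pdgfra, the PDGF receptor α, fell from 10.3 ± 1.8 to 0.815 ± 0.049 FPKM. Their part in the matrix result was not tested.

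**Figure D3:**
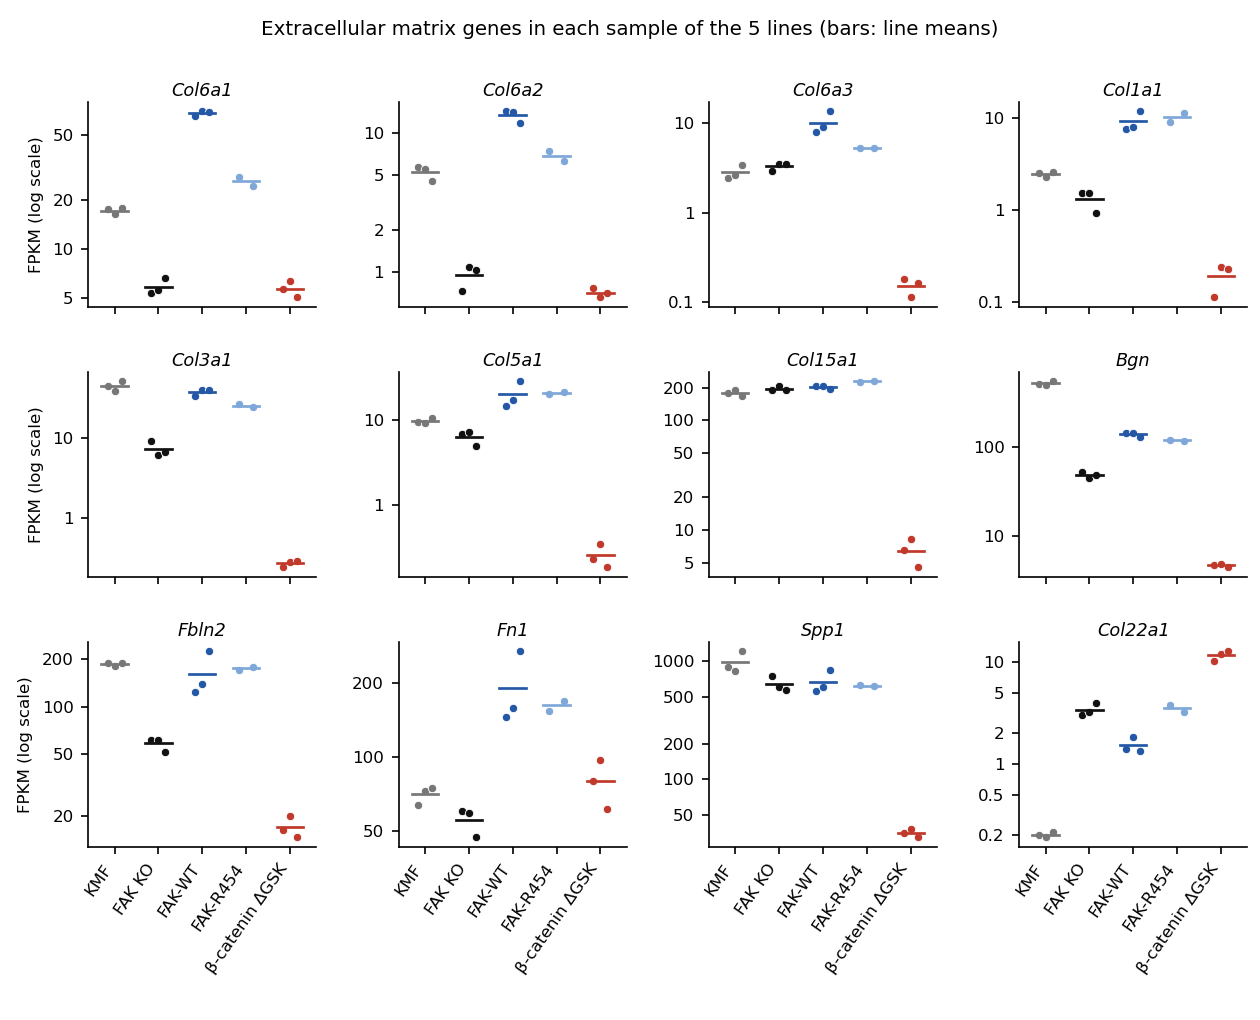
FPKM on a log axis of 12 matrix genes in each sample of the 5 lines (3 samples a line, 2 of FAK-R454), with line means as bars. β-catenin ΔGSK and FAK KO coincide for Col6a1 and nearly so for Col6a2, only β-catenin ΔGSK is low for Col15a1 and Spp1, and Col22a1 is highest in β-catenin ΔGSK.

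Of 29 matrix glycoproteins and matricellular genes, 14 were called lower (48.3%, against 7.17% of all genes) and 1, Eln (elastin), higher (3.45%, against 4.48%). The small proteoglycan Bgn was at 4.73, 4.83 and 4.45 FPKM against 145, 145 and 132 FPKM in FAK-WT, with 49.0 ± 4.2 FPKM in FAK KO (log2 fold change -4.88 ± 0.07, limma adjusted p = 3.1e-09). Spp1, osteopontin, was at 35.2, 38.0 and 32.3 FPKM against 560, 612 and 849 FPKM, and FAK KO (641 ± 92 FPKM) was at the FAK-WT level. Fbln2 was at 16.4, 20 and 14.6 FPKM against 123, 138 and 225 FPKM. Fn1, fibronectin, was at 80.3, 97.8 and 61.6 FPKM against 147, 158 and 270 FPKM, with a log2 fold change of -1.23 ± 0.24 that became -0.96 without FAK-WT sample 3 and was then not called. FAK KO had the lowest Fn1 mean, 55.7 ± 7.35 FPKM. Mgp, matrix Gla protein, fell from 134 ± 23 to 1.12 ± 0.12 FPKM. Abundant genes with smaller differences were Sparc, at 693 ± 25 against 1022 ± 43.1 FPKM, and Tgfbi, at 248 ± 9.5 against 196 ± 8.89 FPKM, in the opposite direction.

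Matrix proteases and their inhibitors showed the same tilt, with 12 of 29 called lower (41.4%, against 7.17% of all genes). The membrane protease Mmp24 was the 1 called higher (3.45%, against 4.48%), at 7.85 ± 0.38 against 2.35 ± 0.15 FPKM. Mmp13, a collagenase, fell from 9.93 ± 1.5 to 1.17 ± 0.21 FPKM, and Mmp19 from 6.47 ± 1.4 to 0.626 ± 0.28 FPKM. Adamts2, which trims fibrillar procollagens, was called lower at -3.02. The inhibitor Timp1 (from 68.6 ± 6.7 to 21.2 ± 3.0 FPKM) and the protease Plau fell as well. The most abundant gene of the list, Timp2, was at 390 ± 6.8 against 659 ± 68 FPKM and was not called.

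The receptors for the matrix followed in part. Of 12 integrin genes tested, 6 were called lower (50%, against 7.17% of all genes) and 0 higher, with a median of -1.02. At an adjusted p under 0.05 with no fold limit, 10 were lower (83.3%, against 26.4% of all genes) and 1, Itga6, was higher (8.33%, against 24.4%). With no filter on low values, 8 of 24 integrins were called lower (against 6.42% of all genes) and 0 higher, with a median of -0.45. In that setting 14 were lower and 2 higher with no fold limit (against 17.5% and 13.6% of all genes). Without FAK-WT sample 3, 5 were called lower. Itga5, the fibronectin receptor subunit, was at 22.4, 26 and 22.7 FPKM against 60.9, 62.1 and 69.0 FPKM in FAK-WT, with FAK KO near the lower line at 32 ± 1.7 FPKM. Itgb4, the laminin receptor subunit of hemidesmosomes, fell from 90.3 ± 1.5 to 30.8 ± 2.7 FPKM. Itga7 fell from 3.58 ± 0.35 to 0.200 ± 0.012 FPKM. Of 20 adaptors inside the adhesion, 3 were called lower (15%, against 7.17% of all genes) and 0 higher, and 1 was called lower with a pseudocount of 1. With no fold limit 12 were lower (60%, against 26.4% of all genes) and 3 higher (15%, against 24.4%). Tns1 (tensin 1) led with 3.80 ± 0.28 against 49.6 ± 8.0 FPKM. Among 22 partners of FAK in signaling, Ptk2 itself was the only called gene (4.55% called lower, against 7.17% of all genes).

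Promoter windows were also searched for the AP-1 letters TGANTCA on either strand. They were in 7.93% of windows of all genes, 4.83% of windows of genes tested, 4.84% of genes called higher (17 of 351) and 9.58% of genes called lower (53 of 553); no test was made of this difference. The letters lie 35 bases before the start of Ptgds and 90 bases before that of Col6a1. Mmp13, Mmp10 and Serpinb2, chosen as members of the matrix protease list, are among the 53, and their 130 bases before the start are shown 5′ to 3′ with the AP-1 letters in capitals.
Mmp13 (chr9:7272384-7272513, plus strand): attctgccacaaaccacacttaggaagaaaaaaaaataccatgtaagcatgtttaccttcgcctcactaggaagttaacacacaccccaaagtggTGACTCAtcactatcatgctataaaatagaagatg
Mmp10 (chr9:7502212-7502341, plus strand): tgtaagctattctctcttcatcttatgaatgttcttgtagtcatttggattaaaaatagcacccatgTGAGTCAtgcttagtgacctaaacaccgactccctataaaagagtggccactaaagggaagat
Serpinb2 (chr1:107511293-107511422, plus strand): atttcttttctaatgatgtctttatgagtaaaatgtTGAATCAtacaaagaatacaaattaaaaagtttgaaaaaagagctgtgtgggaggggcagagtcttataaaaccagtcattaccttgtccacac
The match lies 35 bases before the start in Mmp13, 63 bases in Mmp10 and 94 bases in Serpinb2. Mmp10, stromelysin 2, was at 0.656, 0.572 and 1.01 FPKM against 2.90, 3.14 and 1.37 FPKM, with sample 3 of each line closest to the other line. Serpinb2, an inhibitor of plasminogen activators, fell from 3.56 ± 0.51 to 0.497 ± 0.11 FPKM and was highest in FAK KO, at 5.80 ± 0.63 FPKM.
A match of letters does not show that a factor binds there. Of genes that report on ERK and AP-1 activity, 6 of 28 were called lower (21.4%, against 7.17% of all genes) and 1 higher (3.57%, against 4.48%). The list median was 0.01. Spry1 led the lower ones (-1.70), and Junb, at 52.3, 51.9 and 42.9 against 88.1, 101 and 135 FPKM, was among them (-1.12, and -0.95 without FAK-WT sample 3). Without FAK-WT sample 3, 2 of the 28 were called lower and 0 higher.

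Chemokine and cytokine genes were called in 1 direction. Of 17 chemokine, cytokine and receptor genes, 10 were called lower (58.8%, against 7.17% of all genes) and 0 higher (median -1.12). Without FAK-WT sample 3, 8 of 16 were called lower, and 6 of 17 were with a pseudocount of 1. With no filter on low values, 13 of 35 were called lower (against 6.42% of all genes) and 0 higher, with a median of -0.82. The chemokine receptor Cxcr4 was at 0.0390, 0.0436 and 0.0377 FPKM against 5.00, 4.6 and 4.90 FPKM. Cxcl1 was at 8.5, 9.63 and 8.24 FPKM against 65.8, 68.4 and 48.9 FPKM, and FAK KO was at the FAK-WT level (56.6 ± 2.8 FPKM). Ccl2 and Il33 were also called lower. C3, complement component 3, was at 26, 31.0 and 16 FPKM against 321, 324 and 281 FPKM, with 102 ± 7.0 FPKM in FAK KO. Lcn2, lipocalin 2, was at 0.308, 0.688 and 0.420 FPKM against 47.8, 52.5 and 32 FPKM. Cd68, listed as a macrophage marker, fell from 8.62 ± 3.2 to 1.32 ± 0.46 FPKM, but Ptprc, Csf1r and Lyz2 had means of 0.0407 FPKM or less in both lines.

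The most negative log2 fold change of all genes was that of Ptgds, prostaglandin D2 synthase (chromosome 2, 25466709 to 25470046). Ptgds was at 0.106, 0.0890 and 0.179 FPKM in β-catenin ΔGSK and at 72.1, 69.7 and 45.0 FPKM in FAK-WT (log2 fold change -8.10 ± 0.21, limma adjusted p = 6.4e-08). FAK KO (2.79 ± 0.50 FPKM) and KMF (5.54 FPKM) were low too, and FAK-R454 was at 17.6 FPKM. Of 19 genes of prostaglandin and lysophosphatidate metabolism, 4 were called lower (21.1%, against 7.17% of all genes) and 1 higher (5.26%, against 4.48%). Serpina6, a glucocorticoid carrier, was at 19.6, 18.4 and 18 FPKM in FAK-WT and had no fragment in β-catenin ΔGSK, so it was at least 832-fold lower against the floor of 3 fragments. Penk, a neuropeptide precursor, was at 7.89, 8.97 and 7.60 FPKM in FAK-WT and had 1 fragment in all in β-catenin ΔGSK (ratio 979, 95% counting interval 175 to 38689). Serpina6 and Penk had their highest means in FAK-R454, at 53.9 and 47.7 FPKM.

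Cell identity genes moved in both directions. Of 14 ovarian and mesothelial markers, 4 were called higher (28.6%, against 4.48% of all genes) and 2 lower (14.3%, against 7.17%). Wt1, a transcription factor of the surface epithelium, rose from 107 ± 8.5 to 227 ± 10 FPKM, and Amhr2, the receptor for anti-Müllerian hormone, was at 365, 390 and 510 FPKM against 155, 146 and 77.1 FPKM. Krt8 fell from 601, 602 and 503 FPKM to 160, 189 and 193 FPKM, while Krt19 was at 644 ± 48 against 568 ± 21 FPKM and did not pass the test. Msln, mesothelin, was at the threshold (-1.03, and between -0.96 and -0.99 without FAK-WT sample 2, β-catenin ΔGSK sample 1 or β-catenin ΔGSK sample 3). Of 13 factors of the epithelial-mesenchymal transition, 2 were called lower (15.4%, against 7.17% of all genes) and 0 higher. With no fold limit 5 were lower (38.5%, against 26.4%) and 2 higher (15.4%, against 24.4%). Snai1 (Snail) fell from 13.4 ± 2.7 to 1.55 ± 0.23 FPKM, and Vim, vimentin, was at 850 ± 47 against 1171 ± 107 FPKM, under 2-fold. Ly6a, also known as Sca-1, fell from 21.0 ± 3.1 to 0.559 ± 0.10 FPKM and had by far its highest mean in KMF, 119 FPKM.

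Notch and guidance genes were called in both directions. The Notch ligand Jag1 fell from 16.9 ± 1.5 to 3.60 ± 0.13 FPKM and the target Hes1 from 40.3 ± 1.5 to 12.3 ± 0.84 FPKM, while the ligand Dll1 rose from 1.35 ± 0.40 to 6.69 ± 1.6 FPKM. Of 12 Notch genes tested, 4 were called lower (33.3%, against 7.17% of all genes) and 1 higher (8.33%, against 4.48%). The higher count was 2 without FAK-WT sample 1, FAK-WT sample 2 or β-catenin ΔGSK sample 2. Of 45 guidance genes, 10 were called lower (22.2%, against 7.17% of all genes) and 6 higher (13.3%, against 4.48%). Sema3c, Sema3d, Sema3e and Sema3g, secreted class 3 semaphorins, all fell, Sema3g from 6.95, 8.42 and 9.34 FPKM to 0.0233, 0.0608 and 0.0449 FPKM. The membrane semaphorins Sema5a and Sema7a and the receptors Robo3 and Robo4 rose, Sema7a from 5.49 ± 0.36 to 25.8 ± 0.40 FPKM.

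Aldehyde dehydrogenases, whose activity is used as a stem cell marker, had 3 of 18 called in each direction. This was 16.7% each, against 4.48% higher and 7.17% lower of all genes. With no fold limit 9 were higher (50%, against 24.4% of all genes) and 5 lower (27.8%, against 26.4%). Aldh1b1 rose from 1.13 ± 0.11 to 7.29 ± 1.1 FPKM, and Aldh1a2 and Aldh4a1 were called higher at lower levels. Aldh1a1 was at 84.9, 82.4 and 75.1 FPKM against 51.1, 54.5 and 43.6 FPKM, apart but under 2-fold (log2 fold change 0.70 ± 0.09), and FAK KO, at 78.2 ± 4.2 FPKM, was near β-catenin ΔGSK. Aldh3a1 fell from 232 ± 30 to 72.6 ± 17 FPKM, and Aldh1a7 from 28.0 ± 0.56 to 3.69 ± 0.14 FPKM. Aldh3b2 was the other one called lower (-5.45). Of 44 genes of drug transport and glutathione use, 8 were called lower (18.2%, against 7.17% of all genes) and 1 higher (2.27%, against 4.48%). The call higher was lost without FAK-WT sample 1, β-catenin ΔGSK sample 1 or β-catenin ΔGSK sample 2. With no fold limit 14 were higher and 14 lower (31.8% each, against 24.4% and 26.4%). Gsto1 fell from 465 ± 50 to 122 ± 3.5 FPKM.

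Mitotic genes were higher by small steps. Of 45 tested, 44 had a log2 fold change above 0. At an adjusted p under 0.05 with no fold limit, 25 were higher (55.6%, against 24.4% of all genes) and 1 lower (2.22%, against 26.4%). By the full rule 1, Cdc20, was called higher (2.22%, against 4.48%). Cdc20, an activator of the anaphase-promoting complex, was at 74.1, 76.3 and 83.0 FPKM against 39.3, 37.3 and 27.4 FPKM. The list median was 0.44, and it was 0.26 without FAK-WT sample 3, whose summed level over the list (559 FPKM) was below those of samples 1 and 2 (801 and 763 FPKM); β-catenin ΔGSK samples summed to between 939 and 1000 FPKM. Between 1 and 4 of the genes were called when single samples were left out. Of 47 DNA replication genes, 0 were called, with a median of 0.07. At an adjusted p under 0.05 by limma, 8 were higher (17.02%, against 24.4% of all genes) and 2 lower (4.255%, against 26.4%). Both shares were thus below those of all genes. By the full rule 1 was called higher without FAK-WT sample 1, without FAK-WT sample 2 or with limma-voom. Without FAK-WT sample 3, 7 were higher and 8 lower at any fold, against 22.6% and 25.7% of all genes in that setting. The list median was then -0.03. Ccnd2, cyclin D2, was at 292, 273 and 234 FPKM against 90.7, 92.3 and 88.1 FPKM. Of 56 DNA repair genes, 1 was called higher (1.79%, against 4.48% of all genes) and 0 lower. The single call was Parp1, the poly(ADP-ribose) polymerase, at 198, 205 and 230 FPKM against 86.0, 81.9 and 59.6 FPKM. Of 25 p53 targets and BCL2 family genes, 1 was called higher (4%, against 4.48% of all genes) and 1 lower (4%, against 7.17%). The pro-apoptotic gene Bcl2l11 (Bim) rose from 6.25 ± 0.36 to 19.6 ± 1.3 FPKM, while Bmf of the same list fell (log2 fold change -1.15). The lower count was 2 without FAK-WT sample 1, without β-catenin ΔGSK sample 1 or with limma-voom.

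**Figure D4:**
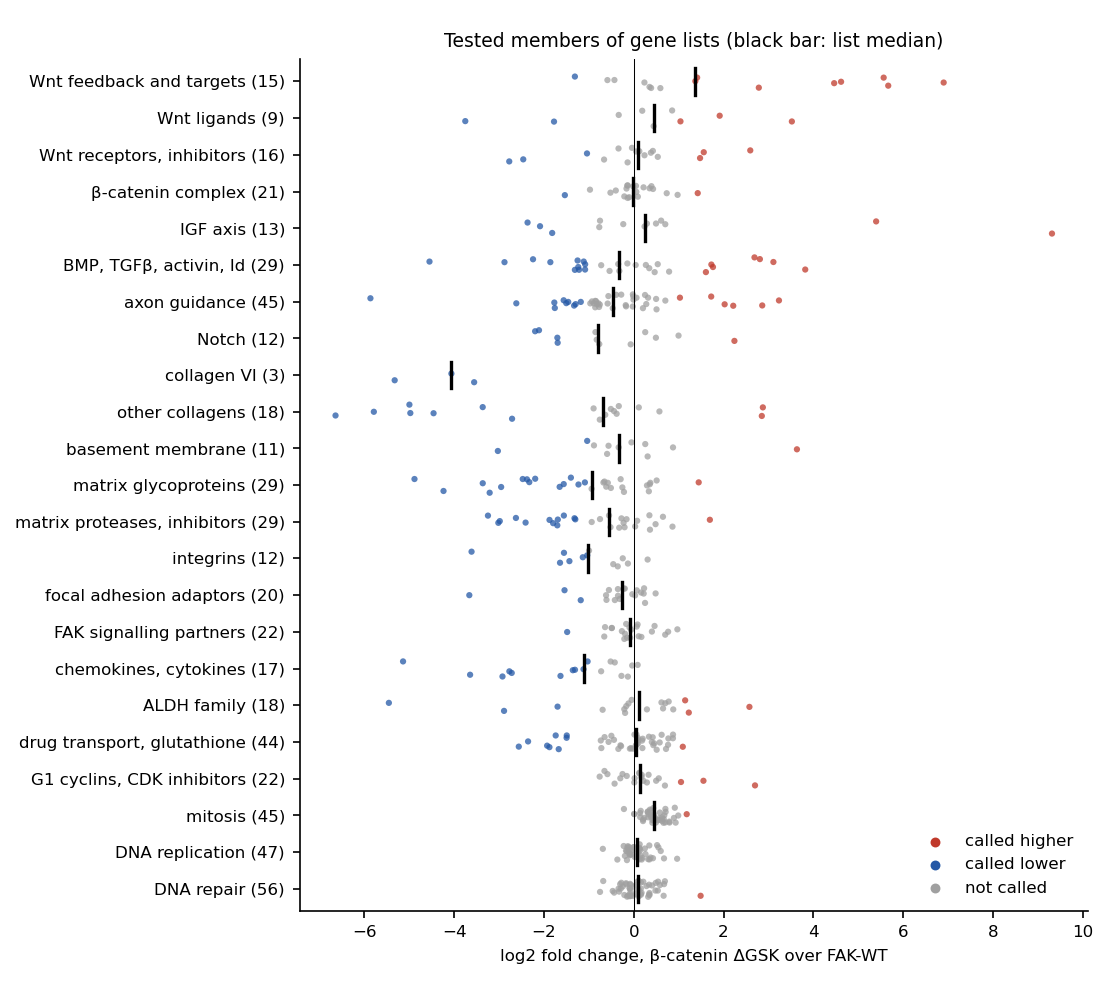
Log2 fold change (β-catenin ΔGSK over FAK-WT, x axis) of each tested member of 23 gene lists, with the number tested in brackets, called genes in color and list medians as black bars. Wnt feedback genes spread to the right, collagens, integrins and chemokines to the left, and mitotic genes run from -0.22 to 1.18 with a median of 0.44.

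Genes of hypoxia and glycolysis varied within FAK-WT itself. Gapdh was at 2218, 2526 and 5148 FPKM in FAK-WT samples 1 to 3 and between 4059 and 5175 FPKM in β-catenin ΔGSK, and the summed level of the list was 7708, 8621 and 15872 FPKM in FAK-WT. Of 30 genes, 3 were called higher (10%, against 4.48% of all genes) and 1 lower (3.33%, against 7.17%) with all samples. With no fold limit 3 were higher and 3 lower (10% each, against 24.4% and 26.4%). Without FAK-WT sample 3, 29 were tested, 4 were called higher and 0 lower, and the median went from 0.06 to 0.38. With no fold limit 13 of these 29 were higher and 1 lower, against 22.6% and 25.7% of all genes in that setting. Without FAK-WT sample 1, 5 were called lower, and without β-catenin ΔGSK sample 1, 1 was called higher and 3 lower. Hk2, hexokinase 2, was at 31.3, 31.6 and 26.8 FPKM against 9.87, 12.8 and 16.7 FPKM. The same sample was highest of its line for Fn1, Fbln2, Col5a1, Lox and Wnt7b and lowest for Ptgds, Amhr2 and Cdc20.

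A set of 135 genes, which the study itself had chosen on these samples as linked to both FAK and β-catenin, was described as well; its direction is no independent evidence. Of the 135, 25 were called higher in β-catenin ΔGSK than in FAK-WT (18.5%, against 4.48% of all genes). By the same rule 0 were called lower (against 7.17% of all genes), and 1 was without FAK-WT sample 1. At an adjusted p under 0.05 with no fold limit, limma gave 65 higher (48.15%, against 24.4%) and 4 lower (2.96%, against 26.4%). The 4 lower genes were Dmkn, Fgfr2, Trpm6 and Smagp, named after their values were seen. The set median was 0.35. Axin2, Ndrg2, Wnt4, Cox7a1, Bmp7 and Notum had its largest differences. Cox7a1, a subunit of cytochrome c oxidase, rose from 10, 11.9 and 17.6 FPKM to 94.2, 103 and 110 FPKM. For Myc and Avpi1 of this set, the lines were within 2-fold, with log2 fold changes of 0.35 and 0.65.

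Whole chromosomes differed slightly in level between the lines. The median log2 fold change of the 482 tested genes on chromosome 15, which carries Ptk2, Myc, Krt8 and Amhr2, differed by -0.29 from that of the other chromosomes, and 11.6% of its genes were called lower and 2.70% higher. The same difference was -0.18 on chromosome 5 and -0.16 on chromosome 17, and 0.18, 0.16 and 0.16 on chromosomes 14, 13 and 2. DNA copy number was not analysed here. With each chromosome centered on its own median, 549 genes were called higher and 810 lower.

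**Figure D5:**
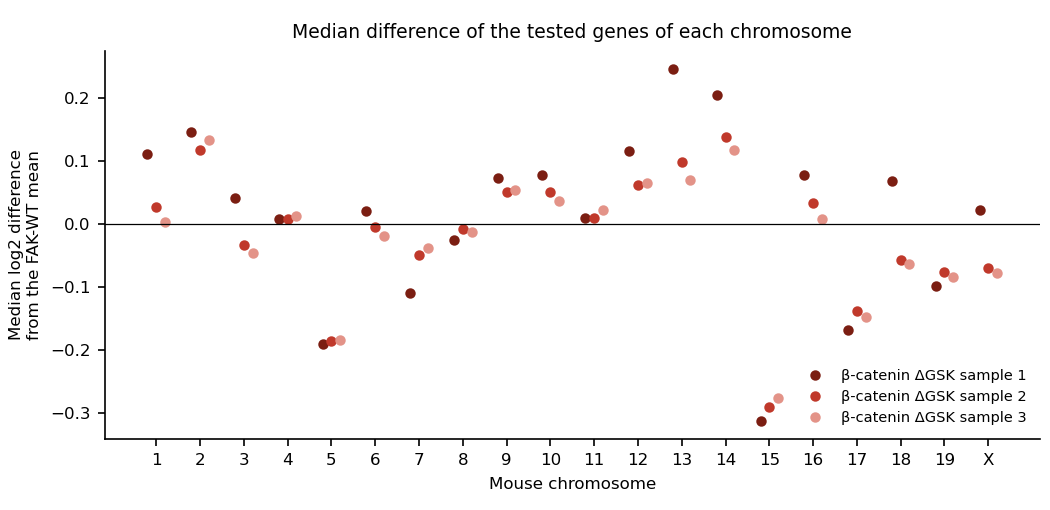
Median log2 difference of the tested genes of each mouse chromosome (x axis) in each β-catenin ΔGSK sample from the FAK-WT mean. All 3 samples lie between -0.28 and -0.31 on chromosome 15 and between -0.18 and -0.19 on chromosome 5.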

How the data were processed

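RNA of tumorspheres grown for 5 days was sequenced as poly-A libraries. The authors deposited FPKM per gene on mm10 for 14 samples; the submitters' processing notes name CASAVA 1.8, STAR 2.5 and DESeq2, while the methods name another aligner, TopHat2. Whole fragments could be recovered for 100% of values (tolerance 0.01) and gave the depth of each library. Genes with a mean above 1 FPKM in either line were tested in the 6 samples with limma 3.58.1 (R 4.3.3) on log2(FPKM + 0.1) with an intensity trend, so fold changes of low genes are understated. Named genes were the 4 index genes, the largest changes, the most abundant called genes and leading members of each gene list. The fit was first tested on simulated data. Members and gene lists were chosen with earlier results of these data known. Alternatives covered pseudocount, filter, scaling, trend, all 5 lines in 1 fit, a replicate block, voom, thresholds, chromosome centering and leaving out samples. Intervals and floors cover counting error only.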

Additional observations from a re-analysis of the deposited data

How the results depend on the processing

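The counts of 532 genes higher and 851 lower moved by over 1.5 times only with the filter or the fold threshold: 1392 lower with no filter on low values, 302 higher and 474 lower with means above 5 FPKM, 1447 and 1789 at a log2 threshold of 0.5, and 2896 and 3140 with none. With single samples left out they ranged from 512 to 567 higher and from 824 to 879 lower. Samples of equal number did not deviate together (correlations of 0.02, -0.08 and -0.23), so the numbers do not pair them; with a replicate block 529 and 849 genes were called. limma-voom on the recovered fragments called 551 and 871. The filter limits what is said of genes under 1 FPKM. With a pseudocount of 1, Aldh1a2, Eln, Mmp10, Pecam1, Sost and Wnt10b fell below the 2-fold threshold, since a larger pseudocount shrinks low genes, and called list members not named here, such as 2 adhesion adaptors, were lost as well; with chromosomes centered, Fzd1, Msln and Wt1 did.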
